A study of Homo sapiens with 5 samples.

Results

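The nuclear genes of the respiratory chain and the ATP synthase were examined in RNA sequencing tables from HLF, a human hepatocellular carcinoma cell line. Genes were chosen by symbol, as the NDUFA, NDUFB, NDUFC, NDUFS and NDUFV genes of complex I, SDHA to SDHD of complex II, the UQCR genes and CYC1 of complex III, the ubiquitous COX subunit genes of complex IV and the ATP5 genes of complex V. This gave 80 of the 12468 genes listed in any table, 37 in complex I, 4 in complex II, 9 in complex III, 11 in complex IV and 19 in complex V. The study removed the ubiquitin-specific protease USP28 and then put it back. The 5 conditions, with 1 sample listed for each, were control cells (sgCtrl, USP28-Ctrl), knockout cells (sgUsp28, USP28-KO), and knockout cells carrying the vector pRRL-Ctrl, pRRL-Usp28-WT or pRRL-Usp28-Mono. All 5 carry a guide RNA label (sgCtrl or sgUsp28), and the last 3 also carried a lentiviral vector. The knockout came from single-cell clones, and the Mono protein, USP28-M, is a mutant that does not dimerize.

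The respiratory chain sits in the inner mitochondrial membrane. Complexes I (NADH dehydrogenase) and II (succinate dehydrogenase) pass electrons to ubiquinone, complex III passes them to cytochrome c, and complex IV (cytochrome c oxidase) passes them to oxygen. Complexes I, III and IV pump protons, and complex V (ATP synthase) uses the returning protons to make ATP. Except for complex II, each complex joins subunits encoded in the nucleus with subunits encoded in mitochondrial DNA, so its parts come from separate genomes.

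The values used were average levels, in log2 CPM (read counts scaled to library size), each taken by the authors over all libraries of a fit. The knockout fit joined the USP28-Ctrl and USP28-KO libraries and listed 11102 genes, 80 of them members. The reconstitution fit joined the libraries with control vector, USP28-WT and USP28-M and listed 12342 genes, 79 of them members. An average over conditions cannot show how a gene differs between them, so no effect of USP28 on any gene is given. The fits share no library and were normalised apart, so a difference between them is a description without a test, in which the condition and the set of libraries cannot be told apart. Read depth was taken from the step between the lowest CPM values. It came to some 7690000 reads for the knockout fit as a whole, and 96.8% of 1100 low genes had a whole number of reads on this scale, to a tolerance of 0.1. For the reconstitution fit it came to some 30460000 reads, with 68.5% of 1100 low genes whole, a looser estimate. Counting errors below follow from these totals and cover counting error only.

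USP28 itself averaged 5.15 log2 CPM in the knockout fit and 9.79 in the reconstitution fit, which holds libraries with USP28 expressed from a vector. Because the averages pool conditions, this does not check the knockout. The hepatocyte markers ALB, APOA1, APOB, TTR, AFP and HNF4A were listed in neither fit, and SERPINA1 was listed at 1.88 log2 CPM in the reconstitution fit alone. KRT8 and KRT18, keratins of simple epithelium, averaged 11.18 and 10.66 log2 CPM in the knockout fit and 12.02 and 11.21 in the reconstitution fit, while the epithelial markers EPCAM and CDH1 were not listed. The mesenchymal filament gene VIM averaged 11.71 and 11.69 log2 CPM in the knockout and the reconstitution fit, FN1 6.32 and 5.20, and CDH2 7.72 and 8.06. Of 3 blood and endothelial markers, PTPRC and PECAM1 were not listed and CD68 was, at 6.86 and 7.73 log2 CPM.

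The nuclear subunit genes were abundant as a group. Their median was 6.43 log2 CPM in the knockout fit and 6.34 in the reconstitution fit, against 5.33 and 4.90 over all genes. By CPM alone 40 of 80 and 43 of 79 members lay above the 75th percentile of all genes, and 10 and 6 lay below the median of all genes. These genes have short transcripts, with a median length of 1263 bases, and a longer transcript yields more reads per molecule. Levels of different genes are therefore compared per length, as CPM per kb of the longest protein-coding transcript. Per length the members' median was 59.8 CPM per kb in the knockout fit and 52.4 in the reconstitution fit, against 11.8 and 8.93 over all genes, and 64 and 66 members lay above the 75th percentile. Which transcript HLF cells use is not known from these data. Hence an order between genes is called stable only where it held in both fits under all 5 choices of length tried (the longest coding, shortest coding, principal and median transcript, and the longest of any type). Each choice was applied to both genes of a pair alike. Orders and ratios with unlike choices for the genes of a pair were not computed. The ratio ranges below, and orders said to hold throughout, are therefore not full bounds over transcript use. Of the 666 pairs within complex I, 298 (44.7%) kept 1 order throughout, as did 2 of 6 pairs in complex II, 16 of 36 in complex III, 29 of 55 in complex IV and 71 of 153 in complex V. The other orders depended on the transcript assumed or on the fit. Some of the lengths tried are shorter than the coding sequence, as for ATP5F1B, NDUFV1, NDUFS1 and SDHC. An order that is not stable can rest on such a length alone.

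**Figure D1:**
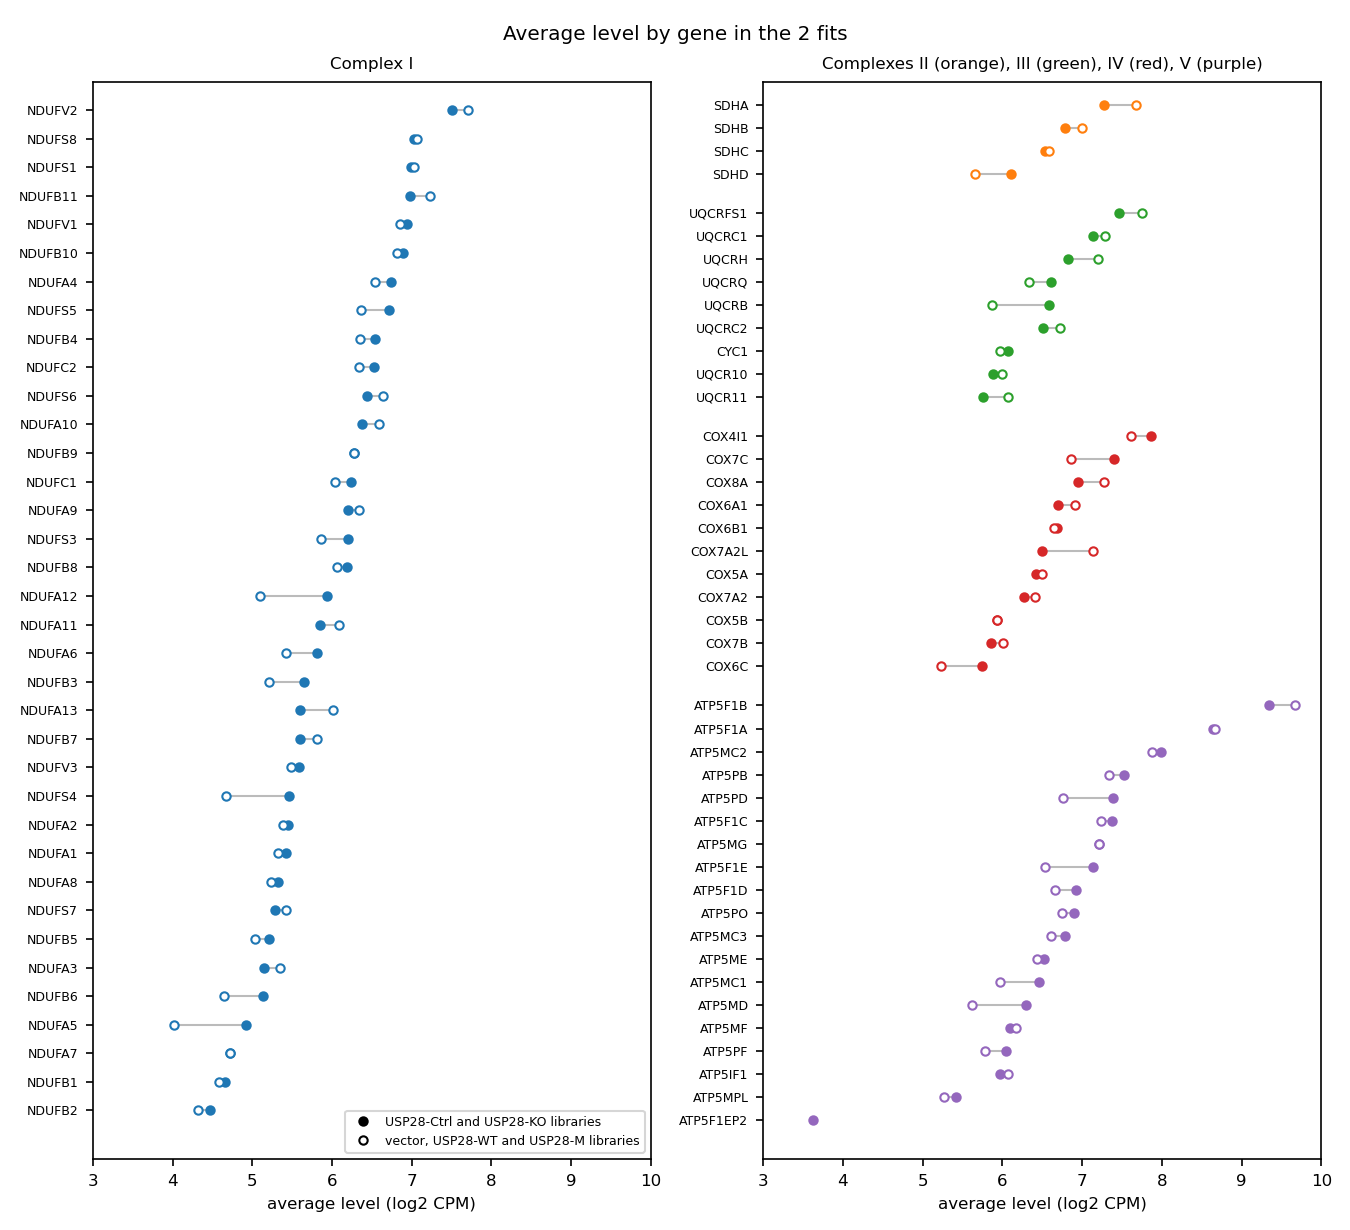
Average level of the genes shown (x axis, log2 CPM) in the USP28-Ctrl and USP28-KO libraries (filled points) and in the libraries with control vector, USP28-WT and USP28-M (open points), joined by a line. Genes are grouped by complex and ordered by the knockout fit, ATP5F1B lies highest at 9.34 and 9.67, and ATP5F1EP2 has no open point.

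Complex I had the lowest or second lowest median of the 5 complexes under each length tried. Its 37 genes had a median of 49.4 CPM per kb in the knockout fit and 45.5 in the reconstitution fit. The summed level was 2662 and 2591 CPM, or 0.266% and 0.259% of the reads counted. The 7 nuclear core subunits carry the flavin and the iron-sulphur clusters of the electron path. The 30 others are counted here as accessory, NDUFA4 included. By CPM the core genes had the higher median, at 6.95 log2 CPM against 5.73 for accessory genes in the knockout fit, and at 7.03 against 5.65 in the reconstitution fit. Per length the difference was smaller, with 58.4 against 49.2 CPM per kb in the knockout fit and 46.1 against 45.0 in the reconstitution fit. Its size depended on the length chosen. With the principal transcript the medians were 60.5 against 52.3 CPM per kb in the knockout fit and 60.8 against 47.2 in the reconstitution fit.

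Among the core genes, NDUFV2, an iron-sulphur subunit of the NADH-oxidising module, was at 7.51 and 7.70 log2 CPM in the knockout and the reconstitution fit. This is 193 and 221 CPM per kb, and NDUFV2 stayed above 28 of the 36 other complex I genes throughout. NDUFV1, its partner that binds the flavin and NADH, was at 6.94 and 6.85 log2 CPM, and NDUFS1, the large iron-sulphur subunit of the same module, at 6.996 and 7.031. The order of NDUFV2 against both partners was not stable. NDUFS8 and NDUFS7 carry the last iron-sulphur clusters before ubiquinone. NDUFS8 was at 7.03 and 7.07 log2 CPM and NDUFS7 at 5.28 and 5.42, and per length NDUFS8 exceeded NDUFS7 by 4.08-fold to 11.9-fold in the knockout fit and by 3.82-fold to 11.2-fold in the reconstitution fit. NDUFS3, a core subunit of the arm that reaches into the matrix, was at 6.20 and 5.86 log2 CPM.

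Of the accessory genes, NDUFS5 was near the top per length, with 191 CPM per kb in the knockout fit and 150 in the reconstitution fit, and lay above 21 others throughout. NDUFB10, a membrane-arm subunit, lay above 27 others throughout, with 143 and 135 CPM per kb. In the knockout fit the lowest values per length were those of NDUFA5 (5.39 and 2.89 CPM per kb), NDUFA9 (8.82 and 9.64) and NDUFB5 (9.17 and 8.09). Their longest coding transcripts have 5608, 8363 and 4046 bases, and with other transcripts NDUFA5 reached 65.9 CPM per kb in the knockout fit. NDUFV3 lay below 33 of the 36 other genes throughout, the most of any complex I gene, with 10.2 and 9.57 CPM per kb. NDUFA4 is named for complex I but is now counted as a subunit of complex IV (RefSeq lists it as COXFA4), and without it the complex I median in the knockout fit was 49.2 CPM per kb.

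Complex II has 4 subunits, all encoded in the nucleus, and also works in the citric acid cycle. SDHA, which holds the flavin, was highest by CPM in both fits, at 7.28 log2 CPM (counting error 0.042) in the knockout fit and 7.68 (0.018) in the reconstitution fit. SDHB, which holds the iron-sulphur clusters, was at 6.780 and 6.998 log2 CPM. The membrane anchors SDHC and SDHD were at 6.53 and 6.58, and at 6.11 and 5.65 log2 CPM. Per length, SDHB exceeded SDHD by 1.26-fold to 1.98-fold in the knockout fit and by 2.02-fold to 3.18-fold in the reconstitution fit. SDHA likewise exceeded SDHD by 1.08-fold to 1.84-fold and by 1.958-fold to 3.345-fold. The lowest of these ratios lies little above equality, beside counting errors of 0.042 (SDHA) and 0.063 (SDHD) on the log2 scale in the knockout fit. SDHC could not be placed, since its transcripts differ so much in length (up to 13566 bases) that its level ran from 6.81 to 259 CPM per kb. The upper value rests on a length below the 510 bases of the SDHC coding sequence. SDHD was also the complex II gene with the lower level in the reconstitution fit, with a difference of -0.46 on the log2 scale, while the differences of SDHC, SDHB and SDHA were 0.05, 0.22 and 0.40. The reads of SDHA, SDHC and SDHD may not be wholly their own, since 25.4%, 44.0% and 66.8% of the 50-base windows of their coding sequences also occur in other genes or pseudogenes. For SDHD, 61.5% of the windows also lie in an annotated gene that overlaps it.

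Complex III held 9 genes with a median of 54.1 CPM per kb in the knockout fit and 61.8 in the reconstitution fit. UQCRFS1, the Rieske iron-sulphur protein, was at 7.47 and 7.75 log2 CPM, and CYC1, cytochrome c1, at 6.07 and 5.98. The core proteins UQCRC1 and UQCRC2 were at 7.14 and 7.29, and at 6.51 and 6.72 log2 CPM. Of the small subunits, UQCRQ was at 6.61 and 6.33, UQCR10 at 5.889 and 5.997, UQCR11 at 5.76 and 6.07, and UQCRB, which lies at the ubiquinone site, at 6.58 and 5.87 log2 CPM. UQCRH, the acidic hinge protein that helps cytochrome c bind, was highest per length, at 187 and 244 CPM per kb. It lay above 7 of the 8 other genes throughout, UQCRB included. Its lowest ratio to UQCRB, 1.003 in the knockout fit, is within counting error (0.049 and 0.053 on the log2 scale).

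UQCRH can share reads with a near-identical copy, UQCRHL, which the symbol rule leaves out. The coding sequences of both have 276 bases and differ at 4 positions (98.6% identity), and the longest stretch without a difference is 157 bases. They are shown because a read that lies wholly within such a stretch cannot be assigned by its sequence. Of the 50-base windows of the UQCRH coding sequence 53.7% also occur in UQCRHL, and the untranslated parts were not compared. UQCRH lies at chr1:46303631-46316776 on the plus strand and UQCRHL at chr1:15807169-15809348 on the minus strand (gene spans, GRCh38, GENCODE 29). Capitals mark the bases that differ.
UQCRH: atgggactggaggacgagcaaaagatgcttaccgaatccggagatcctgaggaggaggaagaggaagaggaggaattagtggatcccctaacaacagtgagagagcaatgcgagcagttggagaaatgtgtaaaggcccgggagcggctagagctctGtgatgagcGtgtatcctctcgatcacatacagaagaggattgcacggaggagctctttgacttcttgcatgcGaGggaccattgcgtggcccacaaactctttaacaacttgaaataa
UQCRHL: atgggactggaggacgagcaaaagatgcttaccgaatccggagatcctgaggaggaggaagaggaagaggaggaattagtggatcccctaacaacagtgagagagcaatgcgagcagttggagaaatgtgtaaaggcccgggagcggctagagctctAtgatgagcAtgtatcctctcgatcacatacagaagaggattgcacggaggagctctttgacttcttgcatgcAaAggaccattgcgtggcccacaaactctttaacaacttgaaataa
UQCRH was listed at 112.9 CPM and UQCRHL at 50.02 CPM in the knockout fit, so that the copy held 30.7% of their sum. The reconstitution fit listed UQCRH at 147.3 CPM and UQCRHL at 14.02 CPM, or 8.69% of the sum. The sum was nearly the same, 162.9 CPM in the knockout fit and 161.3 CPM in the reconstitution fit, a difference of -0.01 on the log2 scale. Taken alone, UQCRH was higher by 0.38 in the reconstitution fit and UQCRHL differed by -1.84. How reads that match both were counted is not given in the sources used here, and its part in the result was not tested.

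Complex IV held 11 genes with a median of 86.1 CPM per kb in the knockout fit and 85.8 in the reconstitution fit. COX4I1, the ubiquitous form of subunit 4 with a regulatory role, was highest by CPM, at 7.86 and 7.61 log2 CPM. COX5A and COX5B were at 6.43 and 6.50, and at 5.94 and 5.93 log2 CPM, and the order among COX4I1, COX5A and COX5B per length was not stable. COX8A, one of the smallest subunits, was highest per length with the longest coding transcript, at 243 and 304 CPM per kb. It lay above 7 of the 10 others throughout. COX6A1 followed with 181 and 210 CPM per kb. COX6B1, which faces cytochrome c, had 155 and 150 CPM per kb. COX7B was the lowest, with 23.6 and 26.0 CPM per kb, and lay below 8 of the 10 others throughout. COX6C had 48.9 and 34.2 CPM per kb, and COX7C exceeded it by at least 2.14-fold under every length and in both fits. COX7A2L, which helps join complexes III and IV into supercomplexes, had 29.6 and 46.1 CPM per kb. None of the 8 symbols of a list drawn up for isoforms of restricted expression (COX4I2, COX6A2, COX6B2, COX7A1, COX7B2, COX8C, NDUFA4L2 and CYCT) was listed in either fit. Whether each symbol was in the annotation that the authors counted is not known here.

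**Figure D2:**
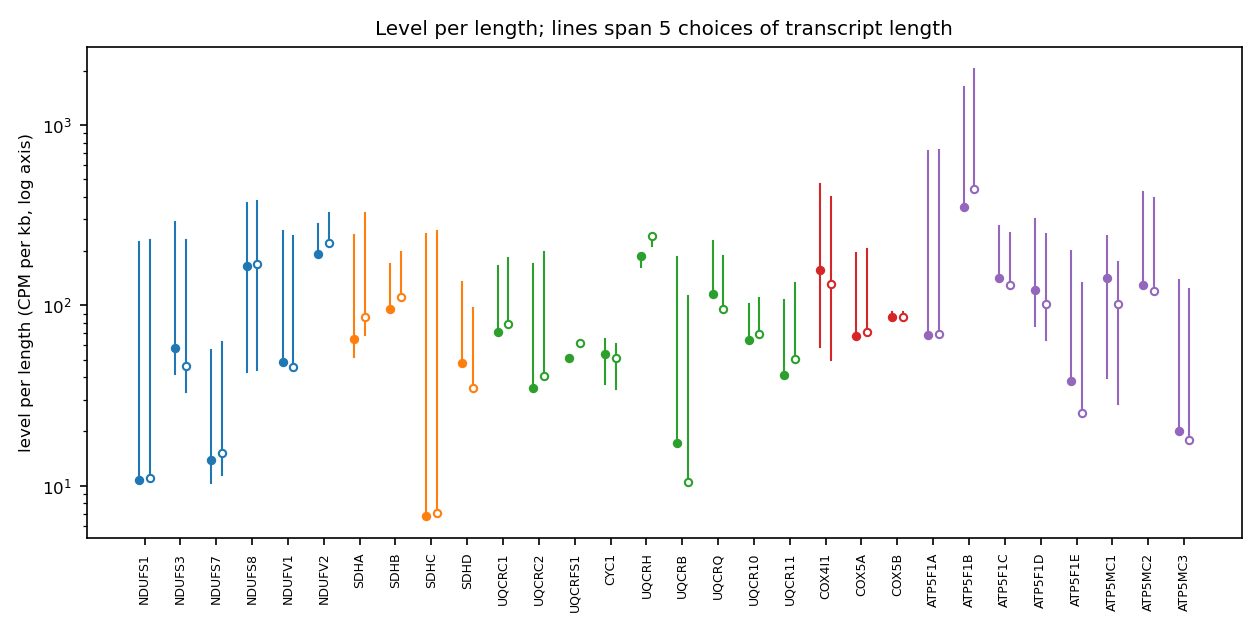
Level per length (y axis, CPM per kb, log scale) of core subunits of complex I (blue), of complexes II (orange) and III (green), of COX4I1, COX5A and COX5B (red) and of the F1 part and c ring of complex V (purple). Points give the longest coding transcript, filled for the knockout fit and open for the reconstitution fit, and lines span the 5 choices of length; ATP5F1B is highest at 353 and 443, and SDHC spans the widest range.

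Complex V had the largest summed level of the 5 complexes, 2971 CPM in the knockout fit and 2855 CPM in the reconstitution fit, but this rank rests on ATP5F1B. Without the highest member of each, complex V had 2321 and 2040 CPM and complex I 2480 and 2383 CPM. Its catalytic F1 part is a head of 3 alpha and 3 beta subunits on a stalk of gamma, delta and epsilon. ATP5F1B, the catalytic beta subunit, was at 9.34 log2 CPM (counting error 0.020) and 9.67 (0.009). It had the highest level of all members on both scales, with 353 and 443 CPM per kb, and lay above all 17 other complex V genes with a length throughout. ATP5F1A, the alpha subunit present in equal number in the protein, was at 8.64 and 8.66 log2 CPM, and ATP5F1B exceeded it per length by 1.57-fold to 5.16-fold in the knockout fit and by 1.93-fold to 6.37-fold in the reconstitution fit. ATP5F1C, the gamma subunit, was at 7.37 and 7.24 log2 CPM, and ATP5F1B exceeded it by 2.30-fold or more. ATP5F1D, the delta subunit, was at 6.93 and 6.66, and ATP5F1E, the epsilon subunit, at 7.13 and 6.53 log2 CPM. Although ATP5F1E had the more reads of the latter in the knockout fit, per length it had 0.314 to 0.670 times the level of ATP5F1D there and 0.248 to 0.530 times in the reconstitution fit.

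ATP5F1E has a processed pseudogene, ATP5F1EP2, that the symbol rule takes in. ATP5F1E lies at chr20:59025467-59032382 on the minus strand and ATP5F1EP2 at chr13:27945260-27945415 on the plus strand (GRCh38, GENCODE 29). The coding sequence of the gene and the pseudogene have 156 bases and differ at 6 positions, marked in capitals (96.2% identity, longest stretch without a difference 64 bases), and are shown as the second case of a member whose reads can fall on a copy.
ATP5F1E: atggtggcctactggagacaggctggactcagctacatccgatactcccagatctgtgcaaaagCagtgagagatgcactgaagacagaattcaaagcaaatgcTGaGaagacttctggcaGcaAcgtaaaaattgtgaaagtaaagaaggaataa
ATP5F1EP2: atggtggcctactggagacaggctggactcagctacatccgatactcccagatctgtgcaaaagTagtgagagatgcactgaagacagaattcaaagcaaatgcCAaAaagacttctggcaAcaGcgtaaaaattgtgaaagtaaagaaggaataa
ATP5F1EP2 was at 12.4 CPM in the knockout fit, or 8.09% of its sum with ATP5F1E, and was not listed in the reconstitution fit, whose lowest listed level is 0.40 log2 CPM against 1.70 in the knockout fit. UQCRBP1, a pseudogene of UQCRB, was likewise at 2.92 log2 CPM in the knockout fit and not listed in the other. The filter that decides which genes are listed is not given in the sources used here.

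The c ring turns in the membrane as protons pass, and ATP5MC1, ATP5MC2 and ATP5MC3 encode the same mature c subunit with different mitochondrial targeting sequences. Their precursors have 136, 141 and 142 residues and share 77. The 231 bases that encode these shared residues are printed for each gene, since they show how far transcripts for 1 protein have parted. Capitals mark the 57 positions at which the 3 genes are not all alike. The genes lie at chr17:48892765-48895871 (plus strand), chr12:53632726-53677408 (minus strand) and chr2:175176258-175184607 (minus strand) of GRCh38.
ATP5MC1: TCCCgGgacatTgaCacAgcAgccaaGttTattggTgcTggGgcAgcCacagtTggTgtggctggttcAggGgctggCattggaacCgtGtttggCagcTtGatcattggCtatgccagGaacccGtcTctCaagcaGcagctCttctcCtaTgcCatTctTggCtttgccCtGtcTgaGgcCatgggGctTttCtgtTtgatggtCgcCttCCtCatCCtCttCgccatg
ATP5MC2: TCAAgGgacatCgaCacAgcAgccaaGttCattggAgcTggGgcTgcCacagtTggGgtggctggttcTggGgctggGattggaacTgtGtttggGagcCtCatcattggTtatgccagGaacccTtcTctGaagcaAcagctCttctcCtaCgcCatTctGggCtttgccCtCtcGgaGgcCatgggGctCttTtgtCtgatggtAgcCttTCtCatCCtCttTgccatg
ATP5MC3: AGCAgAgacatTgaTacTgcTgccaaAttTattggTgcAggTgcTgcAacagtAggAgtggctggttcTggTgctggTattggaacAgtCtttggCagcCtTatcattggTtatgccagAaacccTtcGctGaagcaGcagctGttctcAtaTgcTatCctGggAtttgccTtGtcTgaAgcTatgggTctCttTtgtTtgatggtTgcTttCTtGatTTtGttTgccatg
ATP5MC1 and ATP5MC2 differ at 27 of these positions, and ATP5MC3 differs from each of them at 46. No stretch longer than 17 bases is identical between any pair, so that reads of these genes can be told apart here. ATP5MC2 was at 7.99 and 7.87 log2 CPM in the knockout and the reconstitution fit, ATP5MC3 at 6.78 and 6.61, and ATP5MC1 at 6.45 and 5.98. Per length ATP5MC2 exceeded ATP5MC3 by 2.61-fold to 6.50-fold in the knockout fit and by 2.71-fold to 6.75-fold in the reconstitution fit. The place of ATP5MC1 was not stable: it made up 48.7% of the sum of the 3 genes per length in the knockout fit with the longest coding transcript, and 21.0% at the lowest.

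Of the other complex V genes, 4 belong to the peripheral stalk, which holds the head still. With the longest coding transcript these had 56.0 to 277 CPM per kb in the knockout fit and 46.8 to 180 in the reconstitution fit. ATP5PD was then at the top, but at its lowest over the lengths tried it had 76.3 and 49.7 CPM per kb. Of 5 further membrane subunits, ATP5ME was highest with the longest coding transcript, with 252 and 236 CPM per kb. With the principal transcript ATP5ME kept these values and ATP5MF had 225 and 237. ATP5MPL was lowest with the longest coding transcript, with 25.8 and 23.3 CPM per kb, and lay below 13 of 17 others throughout. ATP5IF1 is an inhibitor and not a subunit, and had 33.7 and 36.3 CPM per kb, or 127 and 136 with the principal transcript. The genes with the most alike levels per length were ATP5F1C and ATP5MC1 in the knockout fit (ratio 1.00) and ATP5F1D and ATP5MC1 in the reconstitution fit (ratio 1.01), a likeness that holds for the longest coding transcript.

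The same complexes also hold subunits from mitochondrial DNA. The 13 genes encoded in mitochondrial DNA summed to 39625 CPM in the knockout fit and 32794 CPM in the reconstitution fit, which is 4.88 and 4.07 times the sum of the nuclear members. Per length they ran from 1270 to 6955 CPM per kb in the knockout fit and from 718 to 6514 in the reconstitution fit. The nuclear member with the highest level, ATP5F1B, had 353 and 443 CPM per kb with its longest coding transcript. In both fits this was below the lowest of the 13. Other lengths gave up to 2043 CPM per kb, within the range of the 13. That value rests on a length below the 1590 bases of the ATP5F1B coding sequence. By CPM alone ATP5F1B (9.34 and 9.67 log2 CPM) lay above ND3 (9.01 and 8.77) and ATP8 (8.70 and 9.18) in both fits. Those genes have only 346 and 207 bases. Per length ND3 had 1495 and 1263 CPM per kb and ATP8 2007 and 2810, above ATP5F1B with its longest coding transcript. COX1, the catalytic subunit of complex IV, was the highest of the 13 by CPM, at 13.39 and 12.99 log2 CPM. ND6, the one gene encoded on the light strand, was at 9.53 and 8.56 log2 CPM.

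Levels of the members in both fits lay close together. Across the 79 shared members Pearson's r of the log2 CPM values was 0.948 and Spearman's rho 0.933, and r over all 10976 shared genes was 0.939. Genes are not independent replicates, and the value is a description. The median difference, reconstitution fit minus knockout fit, was -0.08 on the log2 scale for members and -0.12 for all shared genes. The middle 50% of members lay between -0.23 and 0.14, and that of all shared genes between -0.50 and 0.20. Members at least 0.5 lower in the reconstitution fit numbered 9 (11.4%), where 24.8% of all shared genes were, and 1 member (1.27%) was at least 0.5 higher, where 9.39% of all shared genes were. The members also had more reads than most genes, and the part of depth in their narrower range was not tested. By complex the median differences were -0.09 in complex I, 0.13 in complex II, 0.15 in complex III, 0.07 in complex IV and -0.15 in complex V. In complex V, 14 of 18 genes were lower in the reconstitution fit, beside 59.9% of all shared genes. The 14 include the 3 genes of the c ring and the 4 of the peripheral stalk, but the difference of ATP5MC2, -0.12, equals the median of all shared genes at this rounding.

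**Figure D3:**
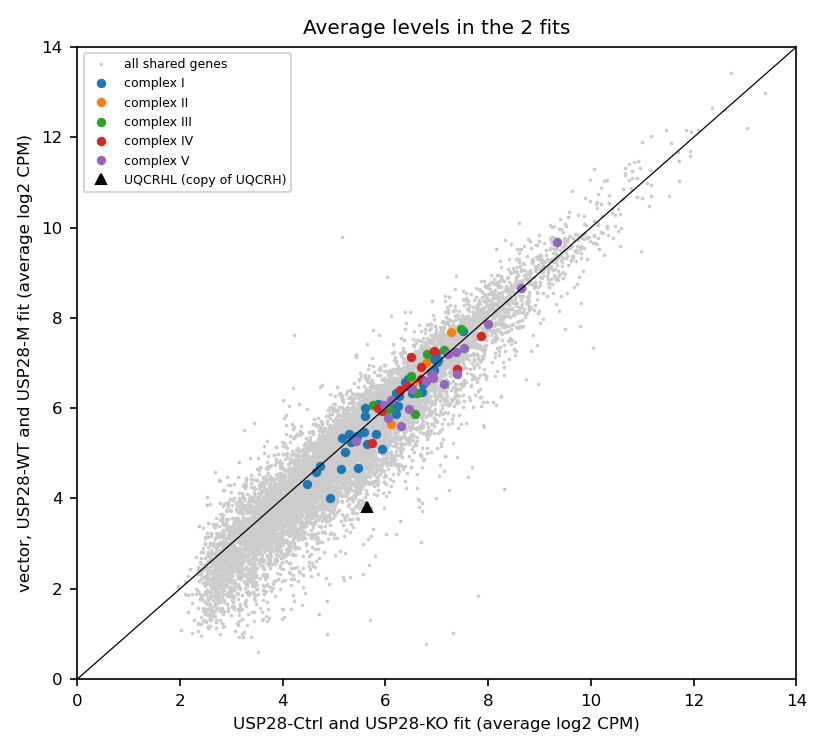
Average log2 CPM in the knockout fit (x axis) and the reconstitution fit (y axis) for 10976 shared genes (grey) and for members coloured by complex, with the line of equal values. Members lie near the line, while UQCRHL (triangle), the copy of UQCRH, lies below it at 5.64 and 3.81.

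Single members stood apart in both directions. NDUFA5 was at 4.92 log2 CPM in the knockout fit (counting error 0.095) and at 4.02 in the reconstitution fit (0.065), a difference of -0.90. NDUFA12, an accessory subunit of the arm that reaches into the matrix, was at 5.94 and 5.10, a difference of -0.84. NDUFS4, whose loss is a known cause of Leigh syndrome, was at 5.46 and 4.67, a difference of -0.79. These differences exceed the counting errors, but no spread between libraries could be set beside them. UQCRB, ATP5MD, ATP5PD, ATP5F1E, COX7C and COX6C followed, with differences of -0.71 to -0.52. At the other end COX7A2L was at 6.50 and 7.14 log2 CPM, higher by 0.64, NDUFA13 at 5.60 and 6.01, higher by 0.41, and SDHA higher by 0.40. Some of the lower genes can share reads with copies. NDUFA5, UQCRB, ATP5MD, ATP5F1E and COX7C each had at least 10% of their 50-base coding windows also elsewhere. The shares of NDUFA5, ATP5MD and COX7C were 25.5%, 28.9% and 39.9%. ATP5PD had 7.32%, while NDUFA12, NDUFS4 and COX6C had no such window. The part of shared reads in these differences was not tested. Across genes, Spearman's rho of the difference with transcript length was 0.058 over 79 members and -0.013 over 10684 genes.

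**Figure D4:**
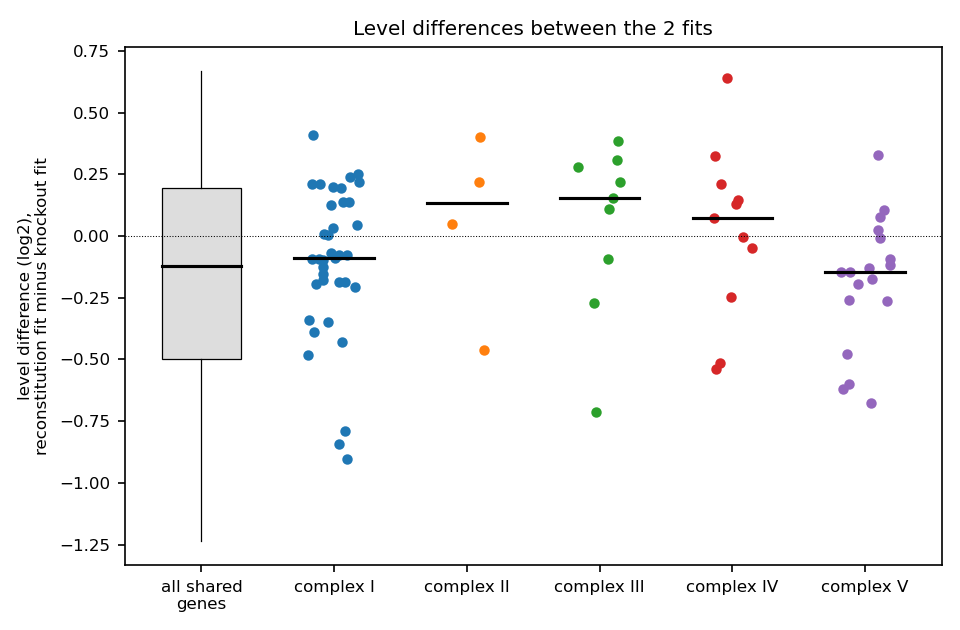
Difference of average level, reconstitution fit minus knockout fit (y axis, log2), for each gene by complex (points, with medians as bars) and for all shared genes (box with quartiles and median, lines to the 5th and 95th percentiles). COX7A2L lies highest at 0.64 and NDUFA5 lowest at -0.90.

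Assembly factors help build these complexes without being part of them. Of 46 assembly factor genes, 42 were listed in the knockout fit and 44 in the reconstitution fit, at medians of 5.01 and 4.67 log2 CPM. Between the fits the 42 shared factors had a median difference of -0.10, with 6 at least 0.5 lower and 2 at least 0.5 higher, beside the 24.8% and 9.39% of all shared genes. LRPPRC, which stabilises mitochondrial mRNA, was the highest of them at 7.87 log2 CPM in the knockout fit and 7.15 in the reconstitution fit. SDHAF3 and LYRM7, which help insert iron-sulphur proteins into complexes II and III, differed by -1.22 and -1.04. PET100 and COX14, both needed for complex IV, were the 2 at least 0.5 higher, by 0.97 and 0.52. CYCS, cytochrome c, was at 8.45 and 7.41 log2 CPM, a difference of -1.04.

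Of 12 regulators of mitochondrial gene expression, 10 were listed in both fits. The coactivators PPARGC1A and PPARGC1B were listed in neither, and their relative PPRC1 was at 6.98 and 6.86 log2 CPM. NRF1, a transcription factor that binds promoters of many respiratory genes, was at 4.30 and 4.39 log2 CPM. GABPA, the DNA-binding part of another such factor (NRF2), was at 5.57 and 4.54 log2 CPM. TFAM, which packages mitochondrial DNA and helps start its transcription, was at 6.10 and 5.02. The 10 listed regulators had a median difference of -0.40, and 5 were at least 0.5 lower in the reconstitution fit. Over all shared genes the median was -0.12, and 24.8% were at least 0.5 lower.

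Promoters of the members, from 250 bases before to 50 bases after the gene start (RefSeq, GRCh38.p14), were available for 66 of the 80 genes. Letters were searched on both strands, as 4 motifs. The NRF1 palindrome, whose 10 letters stand in capitals in the promoter windows printed here, occurred in 4 member promoters (6.06%), in 2.51% of 9756 promoters of listed genes and in 1.36% of 27305 promoters in all. CCGGAAG, the core bound by ETS factors such as GABPA, occurred in 20 (30.3%), 20.7% and 10.7%. AAGATGGC, the core bound by YY1, occurred in 11 (16.7%), 5.72% and 3.03%. TATAAA occurred in 6 (9.09%), 5.40% and 12.0%. By complex the ETS core was in 5 of 32 promoters of complex I, 2 of 3 of complex II, 3 of 7 of complex III, 5 of 10 of complex IV and 5 of 14 of complex V. The YY1 core was in 6 of 32 promoters of complex I and in 0 of 10 of complex IV. The 4 promoters with the NRF1 palindrome are shown with 10 bases on each side, on the strand of the gene, with the motif in capitals. They lie at chr9:122159764-122159793 (NDUFA8, minus strand), chr3:120596167-120596196 (NDUFB4), chr11:112086753-112086782 (SDHD) and chr10:7788145-7788174 (ATP5F1C, the last 3 on the plus strand).
NDUFA8: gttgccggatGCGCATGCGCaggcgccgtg
NDUFB4: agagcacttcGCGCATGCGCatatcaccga
SDHD: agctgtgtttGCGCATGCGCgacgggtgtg
ATP5F1C: gggagcttcgGCGCATGCGCgctgaggcct
The motif starts at position -4 from the gene start in NDUFA8, -159 in NDUFB4, -110 in SDHD and -22 in ATP5F1C. Between the fits these 4 genes differed by -0.09, -0.19, -0.46 and -0.13 on the log2 scale. A match of letters is a description, and binding was not measured in these data.

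Shared sequence limits the level of some further members. Of 79 members, 32 had at least 1 window of 50 coding bases that also occurs elsewhere in the annotated transcripts, 19 had at least 10% of their windows so, and 4 had at least 50%, namely SDHD (66.8%), COX6A1 (64.4%), UQCRFS1 (60.6%) and UQCRH (53.7%). For these genes the level listed can depend on how reads with several matches were treated. The other 47 had no such window. Apart from such copies, NDUFV2, NDUFA7 and UQCR11 had 100% of their windows, and NDUFA13 97.7%, in an annotated gene that overlaps them at the same place, so their levels can include its reads or lack reads given to it.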

How the data were processed

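HLF RNA was extracted with TRIzol, made into libraries with a NEBNext Ultra kit and sequenced on a NovaSeq instrument. Per the labels' processing notes the authors used bcl2fastq 2.20, STAR 2.5.4, hg19 and edgeR 3.26.8. The counting tool, the filter and the number of libraries per condition are not given in the sources used here. The 3 deposited tables hold, per gene, the authors' average log2 CPM, fold change, test statistic and p-values. The columns of comparisons were not used, so that only the average log2 CPM, pooled by the authors over the libraries of a fit, is reported, without tests. In 1 table the header is shifted by 1 column, and the log2 CPM was taken from the field it belongs to. Both reconstitution tables hold the same averages. One result on a member is not reported here, though the gene is counted in the totals. There were 0 unmatched columns of per-sample values.

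CPM was computed as 2 to the power of the log2 value. Gene IDs were matched to GENCODE 29 (GRCh38) transcripts for 97.1% and 95.9% of listed genes. The planned length was the longest transcript. Because this was a retained intron for some genes, the longest protein-coding transcript was used, a choice made after the annotation had been seen. Windows were limited to coding sequence after those of whole transcripts were found to hold repeats. The reading of depth was tried on simulated counts from libraries of equal expected size. An even step per read was built into them. The trial therefore cannot show how well the step is read from averages over unequal, normalised libraries. Members, lists and the rule for named genes (complexes II and III, core and F1 subunits, c ring, COX4I1, COX5A, COX5B, 3 highest and lowest per length in complexes I, IV and V, 3 largest differences each way) were chosen with earlier results of these data known; further genes were named after their values were seen. Plots were drawn with matplotlib 3.10.9 and values computed in Python 3.11.15 with scipy 1.17.1, pandas 2.3.3 and numpy 2.4.6.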

Additional observations from a re-analysis of the deposited data

How the results depend on the processing

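Per-length medians depended on the transcript length. In the order of complexes I to V, the knockout fit gave 94.3, 137, 102, 158 and 197 CPM per kb with the median transcript length and 109, 208, 108, 195 and 262 with the shortest coding transcript. The reconstitution fit gave 101, 160, 126, 173 and 162 CPM per kb with the median length and 110, 228, 114, 261 and 217 with the shortest. The longest transcript of any type, added after the data had been seen, gave 44.8 (complex I), 49.9 (II) and 72.4 (V) CPM per kb in the knockout fit and 51.6 (II), 73.4 (IV) and 53.4 (V) in the reconstitution fit. The principal transcript, also added later, gave 54.5 (I) and 124 (V), and 49.2 (I) and 102 (V). Without ATP5IF1 and ATP5F1EP2, added later, complex V had 113 and 102 CPM per kb. Complex V or IV was highest under every length, and the order of the others varied. Leaving out the highest member of each complex lowered the summed levels of complexes I to V to 2480, 272, 718, 926 and 2321 CPM in the knockout fit and to 2383, 274, 742, 970 and 2040 CPM in the reconstitution fit.

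Taken relative to the median of all shared genes, the members' median difference between the fits turned from -0.08 to 0.045 on the log2 scale, with 5 members at least 0.5 lower and 4 higher in place of 9 and 1. With a log2 difference of at least 1, 0 members were lower and 0 higher. Requiring a member in every table or an average of at least 5 log2 CPM moved no value beyond its limit. No paired analysis was possible because the deposited values are averages over libraries, and for the same reason no library could be left out in turn. Depth limits low genes: ATP5F1EP2 had about 94.99 reads over all libraries of the knockout fit, a counting error of 0.15 on the log2 scale.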

Other observations

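Beyond the subunit genes, and among genes listed in both fits, pseudogenes were lower in the reconstitution fit than protein-coding genes were. The lowest listed level was 1.70 log2 CPM in the knockout fit and 0.40 in the reconstitution fit. A low gene thus enters only where its knockout fit level passed the higher floor. The part of this in the differences was not tested, and no protein-coding genes of like level were set beside the pseudogenes. The median difference, reconstitution fit minus knockout fit, was -0.38 on the log2 scale over 222 pseudogenes, of which 42.8% were at least 0.5 lower, and -0.11 over 10335 protein-coding genes, of which 23.9% were. The lncRNA genes, 215 in number, had a median of -0.27. SDHA has the pseudogenes SDHAP1, SDHAP2 and SDHAP3, which differed by -0.38, -0.23 and -0.37, while SDHA differed by 0.40. Read length, read layout and the treatment of reads with several matches in each fit are not given in the sources used here, and their part in these differences was not tested.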
